A study of Mus musculus with 60 samples.

Results

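Glycolysis and hypoxia-response genes were followed in the fibroblast line Balb/c 3T3, derived from mouse embryos and long established in culture, after treatment with chemical carcinogens. The list held 33 genes: 17 enzymes of glycolysis including lactate dehydrogenase, 2 glucose transporters, 2 monocarboxylate transporters, 3 switches of glucose flux, the oxygen-sensing factor Hif1a and 8 other targets of the Hif factors. Probe sets were found by gene symbol, and the probe set with the highest mean stood for its gene. Of the 33 genes, 31 had a probe set and 28 were bright enough to be tested, among 18194 genes with a probe set and 12635 tested in all. Gpi1 and Eno1 were not analysed here. Slc2a3, Slc16a3 and Adm lay at or below the median of all probe sets on each of the 60 arrays and were not tested.

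The cells had been treated, at partial confluence, with 2-acetylaminofluorene (AAF, spelled 2-Acetylaminoflourene in the labels), benzo(a)pyrene (BaP), 2,4-diaminotoluene (DAT) or 3-methylcholanthrene (MCA, spelled 3-methycholanthrene there), and all controls received the solvent DMSO alone at 0.75%. In the literature-dose set, AAF was given at 25 µM, BaP at 0.5 µM, DAT at 50 µM and MCA at 2 µM, each for 24 h and for 120 h. In the IC20 set, named for a dose that inhibits by a fixed share, AAF was given at 10 µM for both times. BaP was given at 1.5 µM for 24 h and 0.1 µM for 120 h, DAT at 700 µM and then 0.2 µM, and MCA at 20 µM and then 0.1 µM. Each set had its own DMSO controls at both times, which gave 20 groups of 3 arrays. The labels call the experiments triplicate without saying whether the arrays came from separate cultures, so the p-values measure only how far these arrays scatter, possibly for technical reasons. The model was 1 cell line in bulk culture, and for every difference given here fewer cells of a kind and less RNA per cell cannot be told apart.

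Glycolysis converts glucose to pyruvate, which lactate dehydrogenase turns into lactate for export through monocarboxylate transporters. Under low oxygen the factor Hif1a is spared from hydroxylation by the prolyl hydroxylases Egln1 and Egln3 and pairs with Arnt. The pair binds DNA at core sequences such as ACGTG near many of these genes, the hydroxylases among them. Arnt is also the partner of the aryl hydrocarbon receptor, which polycyclic hydrocarbons such as BaP and MCA bind and whose core sequence is GCGTG. Cultured fibroblasts express most glycolytic enzymes at high levels also at normal oxygen.

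The windows just upstream of 5 members are shown because these genes carry the main contrasts described here: Pgk1 and Ldha are enzymes that fell with time in culture, and Bnip3, Ankrd37 and Pfkl fell with BaP at 24 h. Each window is the 250 bases before the gene's start in RefSeq on build GRCm38.p6, written 5′ to 3′ on the gene's strand, and capitals mark ACGTG or GCGTG on either strand. Ldha has a second window, chr7:46846832-46847081, which is not shown and holds 0 ACGTG and 1 GCGTG. Where a gene had more than 1 window, the one with the most matches is shown, so the Ldha window was picked by its matches. The windows are chrX:106186850-106187099 (plus strand) for Pgk1, chr7:46845554-46845803 (plus) for Ldha, chr7:138909507-138909756 (minus) for Bnip3, chr8:45999851-46000100 (minus) for Ankrd37 and chr10:78009808-78010057 (minus) for Pfkl.
Pgk1: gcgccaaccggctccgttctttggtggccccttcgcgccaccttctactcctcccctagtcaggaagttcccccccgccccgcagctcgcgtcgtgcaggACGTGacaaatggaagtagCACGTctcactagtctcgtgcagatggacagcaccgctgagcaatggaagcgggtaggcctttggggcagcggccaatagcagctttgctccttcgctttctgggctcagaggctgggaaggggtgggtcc
Ldha: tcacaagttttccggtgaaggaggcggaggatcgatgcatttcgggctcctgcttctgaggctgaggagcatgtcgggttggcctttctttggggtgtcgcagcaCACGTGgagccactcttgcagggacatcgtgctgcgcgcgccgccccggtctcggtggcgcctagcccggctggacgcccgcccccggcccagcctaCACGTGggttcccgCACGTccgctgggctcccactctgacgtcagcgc
Bnip3: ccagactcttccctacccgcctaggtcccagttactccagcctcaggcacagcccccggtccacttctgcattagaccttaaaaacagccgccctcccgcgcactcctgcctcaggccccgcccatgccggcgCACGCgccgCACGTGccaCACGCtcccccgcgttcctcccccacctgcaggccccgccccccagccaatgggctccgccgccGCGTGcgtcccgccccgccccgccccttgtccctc
Ankrd37: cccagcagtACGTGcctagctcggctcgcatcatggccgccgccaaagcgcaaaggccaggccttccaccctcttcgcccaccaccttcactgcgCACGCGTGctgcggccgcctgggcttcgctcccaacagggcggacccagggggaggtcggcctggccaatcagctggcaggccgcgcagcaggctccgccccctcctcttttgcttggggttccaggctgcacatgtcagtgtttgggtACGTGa
Pfkl: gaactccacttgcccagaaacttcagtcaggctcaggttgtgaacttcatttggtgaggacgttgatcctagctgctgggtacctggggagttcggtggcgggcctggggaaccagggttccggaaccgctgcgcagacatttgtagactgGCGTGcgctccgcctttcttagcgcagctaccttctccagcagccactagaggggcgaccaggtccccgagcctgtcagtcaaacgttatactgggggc

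Counted on both strands, so that the palindrome CACGTG counts on each, ACGTG was present 2 times in the Pgk1 window shown, 5 times in that of Ldha, 2 times in Bnip3, 2 times in Ankrd37 and 0 times in Pfkl. In the windows shown GCGTG was present 0 times in Pgk1 and Ldha, 3 times in Bnip3, 2 times in Ankrd37 and 1 time in Pfkl. A window was held for 31 of the 33 members (not for Slc2a3 or Ndrg1). At least 1 window of the gene, shown or not, contained ACGTG in 18 of these 31 genes, beside 18.5% of 27025 mouse genes, and GCGTG in 20 of 31, beside 30.9%. A match is a description of the letters and assigns a site to neither factor, and the list was built partly from known Hif targets.

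The deposited values were scaled differently in the sets (median intensity 41.2 to 47.1 in the literature-dose set and 56.3 to 98.9 in the IC20 set), and the spread between replicate arrays was larger in the IC20 set (median residual SD 0.2177 against 0.1144 on the log2 scale). The sets were therefore normalised and fitted apart with limma and never tested against each other. Of 11 fibroblast markers, 10 lay above the array median on all 60 arrays, with Lum the exception. No marker of epithelium, endothelium, fat or muscle did so, and of 6 macrophage markers only Lyz2 and Cd14 did, while the leukocyte marker Ptprc never exceeded the median. Levels below are normalised intensities, which are quantile-normalised values brought back to the linear scale, and differences are on the log2(intensity + 16) scale, which understates the change of dim genes. A gene is said to rise or fall where its Benjamini-Hochberg adjusted p over all 12635 genes was under 0.05.

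With time in DMSO, Tpi1, Gapdh, Pgk1, Pgam1, Pkm and Ldha fell together with the transporters Slc2a1 and Slc16a1, while Ndrg1, Eno2, Ldhb and Hif1a were higher at 120 h than at 24 h. In the literature-dose set 13 of 28 members fell and 7 rose, against 28.5% of all genes tested falling and 29.3% rising. In the IC20 set 10 fell and 5 rose, against 22.4% falling and 17.8% rising. Since 57.7% and 40.2% of all genes passed in these comparisons, a call by itself says little about a member, and the sizes are given instead. The arrays of the 2 times did not overlap in 59.3% and 48.8% of all genes, so full separation says little by itself as well. Among enzymes the median difference was -0.46 and -0.27 in the 2 sets, beside 0.00 and -0.05 over all genes. Tests on simulated data recovered 88.1% of 67 genes changed 1.5-fold in the literature-dose set and 34.3% in the IC20 set. Far fewer genes were changed there than were called with time, and the noise was independent between arrays. These shares therefore do not give the power of the time comparisons. A missing call in the IC20 set does not show that a gene stayed the same.

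Slc2a1, the main glucose transporter of fibroblasts, read 834, 686 and 726 on the 24 h DMSO arrays of the literature-dose set and 388, 380 and 398 at 120 h. In the IC20 set the arrays read 1817, 1936 and 1629 at 24 h and 1042, 1167 and 1184 at 120 h. The times did not overlap in either set, with a difference of -0.91 (SE 0.08, adjusted p 1.86e-10) and of -0.66 (SE 0.11, adjusted p 2.72e-05). All 3 Slc2a1 probe sets were lower at 120 h, by -0.91 to -1.01 in the literature-dose set. Slc16a1, which carries lactate and pyruvate across the plasma membrane, went from 1541, 1291 and 1081 to 765, 725 and 637 in the literature-dose set. It went from 3872, 3642 and 3795 to 2591, 2867 and 2794 in the IC20 set, again without overlap, with differences of -0.86 and -0.45.

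Several enzymes of the lower pathway fell in both sets. Pgk1, phosphoglycerate kinase, which makes the first ATP of glycolysis, read 4504, 3908 and 4042 at 24 h and 1958, 1881 and 1907 at 120 h in the literature-dose set. In the IC20 set it read 13907, 13653 and 14882, then 7580, 7156 and 7851. Levels at 120 h were close to one another and far below all 24 h arrays, a difference of -1.11 (95% interval -1.23 to -0.99) and of -0.91 (-1.02 to -0.80). Ldha, the subunit that favours lactate formation, read 5426, 4650 and 4548, then 2432, 2375 and 2267 in the literature-dose set. Its IC20 arrays read 10302, 10874 and 11721, then 4660, 4692 and 6192. The third 120 h array was the highest but still below every 24 h array, and the differences were -1.04 and -1.09. Pkm, pyruvate kinase, went from 3486, 3242 and 3199 to 1852, 1761 and 1709, and in the IC20 set from 10834, 9370 and 9826 to 5834, 5519 and 5906. Its differences of -0.89 and -0.80 again separated the times fully.

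Pgam1, phosphoglycerate mutase, read 3163, 3463 and 2947, then 1765, 1766 and 1558 in the literature-dose set, and 8341, 8073 and 8607, then 4466, 4666 and 5177 in the IC20 set. Tpi1, triosephosphate isomerase, read 5153, 4523 and 4374, then 2841, 2551 and 2358, and in the IC20 set 16440, 16473 and 16650, then 9946, 9381 and 11014. Both enzymes were lower at 120 h on every array, by -0.90 and -0.81 for Pgam1 and by -0.86 and -0.71 for Tpi1. Gapdh, the dehydrogenase between them, was measured only by control probe sets of the array, and the one with the highest mean lies at the 5′ end of the transcript. It read 9289, 8755 and 8279, then 5399, 5438 and 5135, and in the IC20 set 29266, 27551 and 29266, then 22328, 22531 and 25670. The differences were -0.72 and -0.29, and the 3 Gapdh probe sets gave -0.59 to -0.72 and -0.29 to -0.43. With deposited medians of 7571 and 24021 and array maxima of 10633 to 12235 and 30046 to 46363, Gapdh sat near the top of the scale, where whether large intensities are compressed was not tested.

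Enzymes of the upper pathway changed less or not in step. Pfkl, the liver-type subunit of phosphofructokinase, read 452, 363 and 430 at 24 h and 287, 254 and 265 at 120 h in the literature-dose set, and 1498, 1462 and 1321, then 1146, 978 and 1032 in the IC20 set. The groups did not overlap in either set, yet the difference passed in the first (-0.59) and not in the second. Pfkp, the platelet-type subunit, fell by 0.46 in the literature-dose set. Pfkm, the muscle-type subunit, rose by 0.24 there with overlapping arrays. That call was lost in the fit of all 60 arrays, with no normalisation and with median scaling. It was also lost without replicate 2 or 3 of the 24 h DMSO, or without replicate 1 or 2 of the 120 h DMSO. Hk1, Hk2, Aldoa and Aldoc did not pass in either set.

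The isozymes Eno2 and Ldhb rose. Ldha, the relative of Ldhb, fell, whereas the enolase Eno1 was not analysed. Eno2, the enolase named for neurons, read 401, 370 and 352 at 24 h and 674, 637 and 657 at 120 h in the literature-dose set. In the IC20 set it read 1013, 869 and 734, then 1782, 1558 and 1314, so the times did not overlap, with differences of 0.79 and 0.82. Ldhb, the subunit that favours pyruvate formation, read 659, 645 and 644, then 779, 877 and 811, and in the IC20 set 2099, 1790 and 1929, then 2371, 2464 and 2369. Its rises of 0.33 and 0.31 stood beside falls of more than 1 log2 unit in Ldha.

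Hif targets outside glycolysis split in both directions. Egln3, a prolyl hydroxylase that marks Hif factors for destruction, read 97.5, 74.8 and 102 at 24 h and 32.8, 33.1 and 28.8 at 120 h in the literature-dose set. Its IC20 arrays read 290, 298 and 303, then 63.7, 89.0 and 70.5. These were the largest falls of any member, -1.16 and -1.80, and the second Egln3 probe set gave -0.40 and -0.54. Ndrg1, a growth-arrest gene that hypoxia also induces, read 695, 624 and 641, then 1201, 1269 and 1312, and in the IC20 set 1969, 1934 and 2003, then 3346, 3533 and 3540. All 5 Ndrg1 probe sets rose in the literature-dose set, by 0.77 to 0.98, and the chosen one gave 0.93 and 0.81. Hif1a itself read 1265, 1508 and 1557, then 1874, 1627 and 1786, and in the IC20 set 4935, 6063 and 5369, then 7215, 5954 and 6985, where 1 array of each time crossed. Its differences of 0.29 and 0.30 passed in both sets, but neither call was stable. The literature-dose call was lost with each array shifted to a common median (0.15) and without replicate 1 of the 24 h DMSO (0.20). The IC20 call was lost with no normalisation (0.10), with the mean of all probe sets (0.19) and without replicate 1 of either time. In the literature-dose set Ankrd37 (-0.57) and Pfkfb4 (-0.43) also fell, while Car9 (0.48) and Egln1 (0.40) rose. In the IC20 set Pfkfb3 fell by 0.58 and Vegfa rose by 0.48. The Pfkfb3 difference missed the threshold with no normalisation (-0.23), with the mean of all probe sets (-0.26), without the filter, and without replicate 1 or 2 of either time. The Vegfa difference missed it with median scaling (0.25) and without the filter, and turned sign with the mean of all probe sets (-0.14). The Vegfa call was also lost without replicate 1, 2 or 3 of the 24 h DMSO, or without replicate 2 of the 120 h DMSO.

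**Figure D1:**
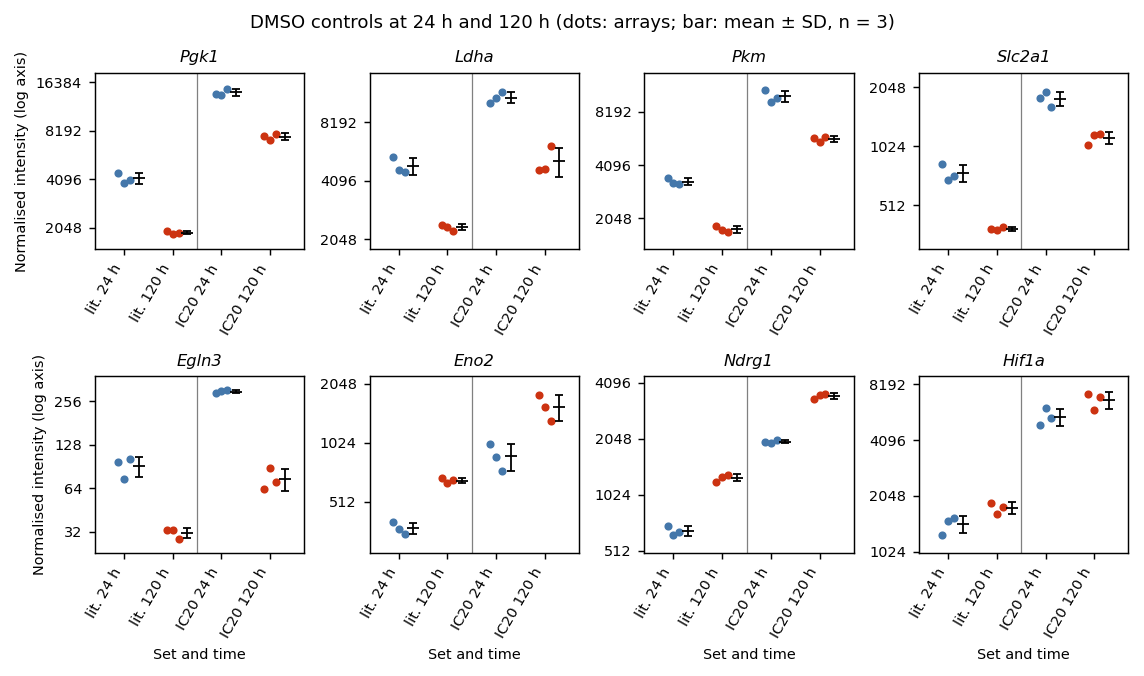
Normalised intensity (log axis) of 8 members in the DMSO controls at 24 h and 120 h of the literature-dose (lit.) and IC20 sets; dots are arrays and bars are the mean ± SD (n = 3). Pgk1, Ldha, Pkm, Slc2a1 and Egln3 are lower at 120 h, Eno2 and Ndrg1 are higher, and the Hif1a arrays of the IC20 set overlap.

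The rises of the IC20 set depend on the normalisation. Shifting each array to a common median instead moved the median of all genes to -0.35 and left 0 members rising and 15 falling, with Ldhb at -0.21 and Hif1a at -0.36, and among all genes called the share that was higher went from 44.3% to 15.9% (55.9% with no normalisation). On that scale Ndrg1 (0.27) and Eno2 (0.41) still lay above the median of all genes, and Hif1a lay at it. Egln1 in the literature-dose set (-0.025) and Vegfa in the IC20 set (-0.14) turned sign when all probe sets of a gene were averaged. RNA integrity, read as the 3′ minus 5′ difference of the actin controls, moved with time in the IC20 set (0.29 ± 0.07 at 24 h and 0.54 ± 0.12 at 120 h, SD, n = 3) but little in the literature-dose set (0.29 and 0.31). The same difference of the Gapdh controls went from -0.28 ± 0.03 to -0.18 ± 0.02 in the literature-dose set and from -0.32 ± 0.04 to -0.46 ± 0.08 in the IC20 set. The summed level of the 11 fibroblast markers was 38139 to 41756 at 24 h and 55860 to 60216 at 120 h in the literature-dose set, and 120033 to 133939, then 165307 to 179880 in the IC20 set. The summed fat cell markers, of which Adipoq, Cidec and Lep never exceeded the array median, went from 41.7 to 44.9 down to 25.8 to 34.7, and in the IC20 set from 124 to 185 down to 20.1 to 33.9. The part of RNA integrity and of these markers in the results was not tested.

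At 24 h, BaP lowered members of both kinds at both doses tested. At 0.5 µM BaP 10 of 28 members fell and 0 rose, against 4.91% of all genes falling and 4.52% rising (9.43% in all). At 1.5 µM BaP 5 of 28 fell and 0 rose, against 1.2% falling and 1.2% rising (2.41% in all). The 5 that fell at 1.5 µM, Pfkl, Ankrd37, Egln3, Ldha and Bnip3, were among the 10 that fell at 0.5 µM. With the replicate number as a block, Slc2a1 (-0.16) and Tpi1 (-0.19) were also called lower and Pfkm (0.23) higher at 0.5 µM, 13 members beside 16.6% of all genes. The doses were in different sets with separate controls and were not tested against each other. Arrays of BaP and DMSO did not overlap in 24.8% of all genes at 0.5 µM and in 17.5% at 1.5 µM.

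Pfkl, which catalyses the committed step of glycolysis, read 223, 178 and 196 with 0.5 µM BaP against 452, 363 and 430 in DMSO, and 920, 942 and 637 with 1.5 µM BaP against 1498, 1462 and 1321. Every treated array lay below every control array. At 0.5 µM the level was 2.00-fold lower (95% interval of the log2 difference -1.22 to -0.78, adjusted p 1.69e-07), and at 1.5 µM the difference was -0.78 (SE 0.18, adjusted p 0.0134), with limma. The other Pfkl probe sets gave -0.68 and -0.23 at 0.5 µM but -0.70 and 0.11 at 1.5 µM. The other phosphofructokinase subunits did not pass at either dose without the replicate block.

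Ankrd37, an ankyrin-repeat gene induced by Hif1a, read 22.1, 22.4 and 22.5 with 0.5 µM BaP against 51.6, 49.1 and 69.3 in DMSO, and 74.0, 72.8 and 90.2 with 1.5 µM against 156, 186 and 185. The treated arrays were close to each other and well under the controls, with differences of -0.91 and -1.01. Egln3 read 59.2, 52.2 and 56.8 against 97.5, 74.8 and 102, and 191, 117 and 212 against 290, 298 and 303. The fall was -0.57 and -0.76, and the 1.5 µM arrays were spread widely. Egln1, the main oxygen sensor among the hydroxylases, read 149, 151 and 169 with 0.5 µM against 218, 221 and 262, a difference of -0.53. At 1.5 µM it read 598, 499 and 652 against 794, 729 and 724, and its difference of -0.36 did not pass. Bnip3, a mitophagy receptor, fell by 0.35 and by 0.33.

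Among enzymes, Ldha read 3975, 3786 and 3992 with 0.5 µM BaP against 5426, 4650 and 4548, and 8042, 8183 and 8879 with 1.5 µM against 10302, 10874 and 11721. These differences of -0.31 and -0.39 were smaller than for Pfkl, and the arrays did not overlap. Pgk1 (-0.28) and Hk1 (-0.18) also fell at 0.5 µM, as did Pdk1 (-0.49), the kinase that shuts pyruvate out of mitochondria, and Pfkfb4 (-0.39). The Hk1 call was lost with no normalisation (-0.17), median scaling (-0.17) or the mean of all probe sets (-0.11). It was also lost without BaP replicate 1 or 3 or DMSO replicate 1 or 2. The fit of all 60 arrays called neither Hk1 nor Pdk1. Pdk1 was also lost without DMSO replicate 2 or 3, and Pfkfb4 with no normalisation and without DMSO replicate 3. Hif1a read 1322, 1348 and 1350 with 0.5 µM BaP against 1265, 1508 and 1557, within the range of the controls. It read 5043, 5737 and 5002 with 1.5 µM against 4935, 6063 and 5369, and its differences of -0.10 and -0.05 did not pass.

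The count at 1.5 µM was fragile. Leaving out each of the 6 arrays in turn gave 0 to 3 members (0 without DMSO replicate 2, 1 without DMSO replicate 1, 2 without DMSO replicate 3, and 3, 2 and 2 without BaP replicate 1, 2 and 3), whereas a fit with the replicate number as a block gave 13, with 11 lower and 2 higher, beside 10.8% of all genes. Median scaling gave 2 members and moved the share of higher genes among all called from 50% to 25.3% (64.3% with no normalisation).

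DAT at 700 µM for 24 h, compared with the same controls as 1.5 µM BaP, lowered 5 members and raised 2, against 3.66% of all genes falling and 4.19% rising (7.84% in all). Pfkl read 855, 928 and 672, Ankrd37 read 69.0, 69.8 and 85.4, and Egln3 read 120, 234 and 168, all below their DMSO arrays given above. The differences were -0.80, -1.08 and -0.76. Ldha read 7933, 7837 and 8915, a difference of -0.41, and Slc2a1 read 1369, 1334 and 1167 against 1817, 1936 and 1629, a difference of -0.47. In the other direction, Slc16a1 read 5049, 4845 and 4690 against 3872, 3642 and 3795, a rise of 0.37, and Ndrg1 read 2521, 2516 and 2499 against 1969, 1934 and 2003, a rise of 0.35. Because the controls are shared, these values are set beside those of BaP and the likeness is not tested. Arrays of 700 µM DAT and DMSO did not overlap in 25.4% of all genes. With the replicate number as a block the count was 14, of which 9 were lower, beside 23% of all genes, and median scaling left 3 lower and 0 higher. The mean of all probe sets gave 5 lower and 0 higher, beside 5.79% of all genes, so neither the Slc16a1 nor the Ndrg1 rise passed there. The actin 3′ minus 5′ difference was 0.38 with 700 µM DAT, 0.40 with 1.5 µM BaP and 0.29 in the controls, and its part in these results was not tested.

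**Figure D2:**
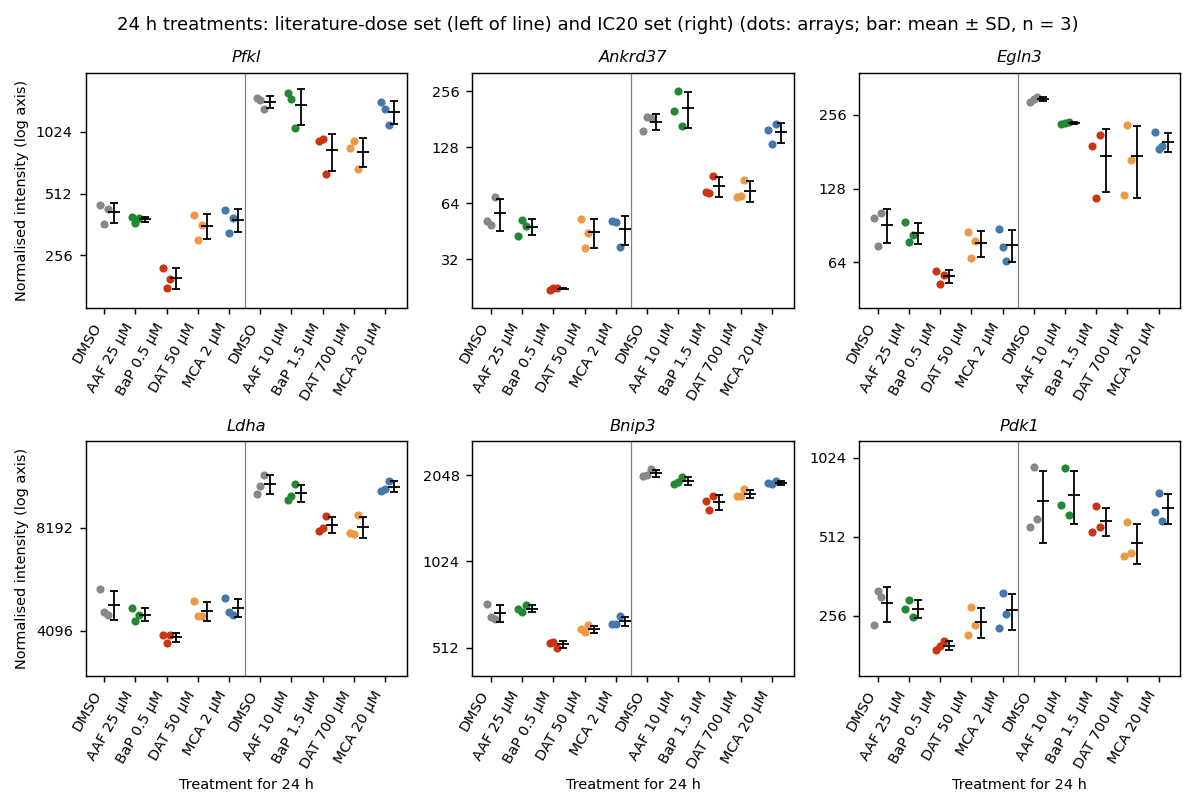
Normalised intensity (log axis) of 6 members after 24 h in DMSO or each treatment, literature-dose set left and IC20 set right of the line; dots are arrays and bars are the mean ± SD (n = 3). Pfkl, Ankrd37 and Egln3 sit below DMSO with 0.5 µM and 1.5 µM BaP and with 700 µM DAT, while Pdk1 spreads widely in the IC20 controls.

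The other 24 h treatments gave no called member. With limma the count was 0 of 28 for 25 µM AAF (0.91% of all genes called), 50 µM DAT (0.174%), 2 µM MCA (2.22%, of which 1.08% up and 1.14% down), 10 µM AAF (0.0237%) and 20 µM MCA (1.31%), and the members at an unadjusted p under 0.05 numbered 8, 6, 1, 2 and 3. A block on the replicate number gave 2 members each for 25 µM AAF (Slc2a1 -0.23 and Pfkm 0.28), 50 µM DAT (Slc2a1 -0.32 and Bnip3 -0.18) and 20 µM MCA (Hk2 0.25 and Eno2 0.47), beside 5.53%, 2.56% and 7.76% of all genes called with the block. The fit of all 60 arrays together gave 1 member for 20 µM MCA, and leaving out DMSO replicate 3 gave 1 for 25 µM AAF. For MCA, which like BaP is a polycyclic aromatic hydrocarbon, Pfkl read 425, 330 and 392 at 2 µM and 1427, 1323 and 1098 at 20 µM. Its intervals of -0.33 to 0.10 and of -0.52 to 0.21 leave out the difference estimated with BaP in the same set. The BaP estimates are themselves uncertain, more so in the IC20 set, the doses differ and no pair was tested. Ankrd37 gave -0.21 and -0.17 with 2 µM and 20 µM MCA, and Egln3 gave -0.23 and -0.55, none past the threshold.

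After 120 h in the literature-dose set, DAT and MCA raised the transporters Slc2a1 and Slc16a1 and enzymes of the lower pathway, while BaP raised Pkm among the enzymes and lowered several Hif targets. The 3 treatments and the time comparison share the 120 h DMSO arrays, so each is given by its own values. With 2 µM MCA 10 members rose and 4 fell, against 18.9% of all genes rising and 20.3% falling. With 50 µM DAT 8 rose and 5 fell, against 11.7% and 12%. With 0.5 µM BaP 2 rose and 8 fell, against 13.8% and 13%. Of all genes 39.2%, 23.8% and 26.8% passed, and the treated and DMSO arrays did not overlap in 49%, 32.9% and 38.8%.

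Pkm read 1852, 1761 and 1709 in DMSO, 2285, 2323 and 2089 with BaP, 2472, 2316 and 2104 with DAT and 3264, 2973 and 2846 with MCA. All treated arrays lay above the controls, and the differences were 0.33, 0.37 and 0.76. Ldha read 2432, 2375 and 2267 in DMSO, 3105, 2875 and 2668 with DAT and 3576, 3305 and 3203 with MCA, rises of 0.29 and 0.51. With BaP it read 2337, 2466 and 2225, within 0.02 log2 units of DMSO by its group mean. Pgk1 read 2279, 2228 and 2100 with DAT and 2726, 2569 and 2607 with MCA against 1958, 1881 and 1907, rises of 0.20 and 0.46. Pgam1 (0.23 and 0.42) and Gapdh (0.17 and 0.29) rose in the same order. With DAT the Gapdh rise missed the threshold in the fit of all 60 arrays, with no normalisation and with median scaling. It also did so without DMSO replicate 3 or DAT replicate 1 or 2. The Pgk1 rise with DAT was lost with no normalisation, with the mean of all probe sets and without DAT replicate 1. That of Pgam1 was lost without single arrays, among them DMSO replicate 3 and DAT replicate 1. Tpi1 (0.30) rose with MCA with overlapping arrays, and Pfkp (0.23) rose with MCA.

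The transporters and Egln3 were also higher. Slc16a1 read 1271, 1163 and 1122 with DAT and 1138, 1042 and 999 with MCA against 765, 725 and 637 in DMSO, and no treated array reached down to a control. The rises were 0.73 (SE 0.09, adjusted p 3.58e-07) and 0.57 (SE 0.09, adjusted p 6.2e-06), although the second Slc16a1 probe set gave 0.07 with MCA. Slc2a1 read 513, 455 and 547 with DAT and 556, 535 and 625 with MCA against 388, 380 and 398, rises of 0.36 and 0.54, and its 3 probe sets gave 0.53 to 0.58 with MCA. Egln3 read 60.8, 49.8 and 61.1 with DAT and 64.4, 60.0 and 58.0 with MCA against 32.8, 33.1 and 28.8, rises of 0.62 and 0.69.

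Members that went down included isozymes and Hif targets. With MCA, Hk2, the inducible hexokinase, read 237, 265 and 239 against 433, 350 and 329, a difference of -0.55. Ldhb fell by 0.39 and Eno2 fell by 0.28 with MCA. Ndrg1 read 980, 1048 and 1015 with MCA, 1003, 965 and 983 with DAT and 1039, 1107 and 1124 with BaP against 1201, 1269 and 1312, and its differences were -0.31, -0.35 and -0.21. The Ndrg1 difference with BaP missed the threshold with no normalisation or median scaling. DAT also lowered Pdk1 (-0.34), Pfkl (-0.30), Egln1 (-0.28) and Bnip3 (-0.14). In place of 5 members, DAT lowered 1 in the fit of all 60 arrays, with no normalisation or with median scaling, and 2 without the filter. Pfkl was lost in each of these settings, and without DMSO replicate 1 or 3 or DAT replicate 2 or 3.

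With BaP at 120 h Pfkl read 175, 169 and 178 against 287, 254 and 265 in DMSO, a difference of -0.58. Ankrd37 read 13.2, 18 and 13.4 against 31.1, 31.5 and 35.4, and Car9, a carbonic anhydrase of the cell surface, read 27.0, 26.0 and 21.9 against 54.8, 46.1 and 45.1. Both fell by 0.66, and the treated arrays lay well below the array median, where the added 16 understates a change. Pdk1 (-0.44), Pfkp (-0.26), Ldhb (-0.25) and Egln1 (-0.23) fell as well, and Pfkfb3 rose by 0.38 at a level above the array median on only 6 of 60 arrays. Pfkp, Ldhb and Egln1 missed the threshold with no normalisation or median scaling. The mean of all probe sets lost Pfkp, Egln1 and Pfkfb3, and the fit of all 60 arrays lost Pdk1, Egln1 and Pfkfb3. Egln1 was also lost without BaP replicate 1 or 3 or any DMSO replicate, and Pfkfb3 without DMSO replicate 1 or 3. AAF at 25 µM gave 0 called members (0.356% of all genes called, 0.324% up and 0.0317% down, 4 members at an unadjusted p under 0.05), and 2 with the replicate block, Slc2a1 at 0.28 and Slc16a1 at 0.31, beside 0.997% of all genes.

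Leaving out DMSO replicate 3 or DAT replicate 1 lowered the DAT count from 13 to 8. Median scaling gave 7 rises and 1 fall for DAT, 2 and 4 for BaP, and 11 and 3 for MCA, and moved the share of higher genes among all called from 51.6% to 62.5% for BaP and from 48.2% to 62.6% for MCA. The actin 3′ minus 5′ difference was 0.44 ± 0.06 (SD, n = 3) with BaP, 0.33 with DAT and 0.30 with MCA against 0.31 in DMSO. The summed fibroblast markers were 44345 to 48238 with BaP, 53044 to 57155 with DAT and 49095 to 52121 with MCA against 55860 to 60216 in DMSO, and the part of either measure was not tested.

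**Figure D3:**
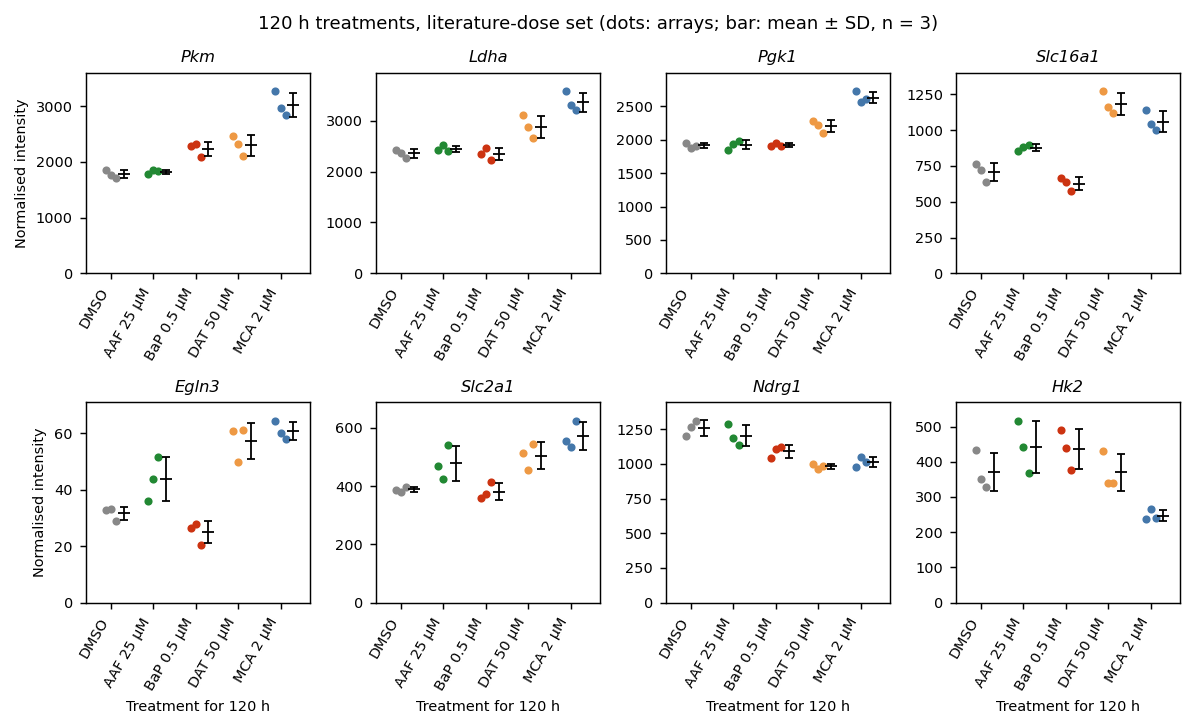
Normalised intensity (linear axis from 0) of 8 members after 120 h in the literature-dose set; dots are arrays and bars are the mean ± SD (n = 3). Pkm, Ldha, Pgk1, Slc16a1, Egln3 and Slc2a1 are highest with DAT or MCA, Ndrg1 is lower with BaP, DAT and MCA, and Hk2 is lower with MCA.

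Whether a treatment acted differently at the 2 times was tested as the difference between its 120 h and 24 h responses, where the dose was the same. For 2 µM MCA 9 members had a higher response at 120 h and 4 a lower one, against 14.8% and 13.4% of all genes. Egln3 (0.92), Pkm (0.66), Slc2a1 (0.55), Ldha (0.53) and Pgk1 (0.51) had the largest gains, and Hk2 (-0.47) the largest loss. For 50 µM DAT 5 members gained and 0 lost, against 4.91% and 3.29%, led by Slc16a1 (0.90), Egln3 (0.83) and Slc2a1 (0.68). For 0.5 µM BaP 4 gained and 2 lost, against 5.03% and 3.48%: Bnip3 (0.41), Pkm (0.35), Ldha (0.30) and Pgk1 (0.29) against Car9 (-0.54) and Ldhb (-0.38). For 25 µM AAF the count was 0 (0.0554% of all genes; 6 members at an unadjusted p under 0.05, and 2 called with the replicate block, beside 0.95% of all genes), and for 10 µM AAF it was 0 (0% of all genes; 1 member unadjusted, 0 with the block). A replicate block gave 11 members for BaP and 8 for DAT, beside 15.3% and 15.4% of all genes, and leaving out 1 array gave 3 to 5 for DAT, with 3 without replicate 1 of the 24 h DMSO, replicate 3 of the 120 h DMSO, replicate 2 or 3 of DAT at 24 h, or replicate 1 of DAT at 120 h. Median scaling gave 9 gains and 0 losses for MCA.

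At the low doses of the IC20 set for 120 h, a single member passed. Slc16a1 read 1823, 2078 and 2110 with 0.1 µM MCA against 2591, 2867 and 2794, a fall of 0.46 (SE 0.08, adjusted p 0.00111) that is opposite in sign to the rise with 2 µM MCA in the other set. The count of 1 of 28 stood beside 2.47% of all genes. It became 2 without MCA replicate 1, 0 with median scaling or with the mean of all probe sets, 3 in the fit of all 60 arrays and 5 with the replicate block, where 9.86% of all genes passed. The counts were 0 for 10 µM AAF (0.562% of all genes called, 3 members at an unadjusted p under 0.05), 0.1 µM BaP (1.44%, of which 0.958% up, 4 members) and 0.2 µM DAT (0%, 1 member). With the replicate block they were 5, 5 and 0, beside 8.56%, 10.6% and 1.69% of all genes.

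BaP and MCA, both polycyclic aromatic hydrocarbons, were matched in dose and time only at 0.1 µM for 120 h, and this was the 1 pair compared. None of 28 members differed past the threshold with limma (0.0791% of all genes did, and 2 members had an unadjusted p under 0.05). Slc16a1 was higher with BaP by 0.21 (95% interval 0.04 to 0.38), and Aldoc, which is near background, was lower by -0.80 (-1.44 to -0.16), both with an adjusted p of 1. For Pgk1 the interval was -0.05 to 0.17, for Ldha -0.27 to 0.17, for Pfkl -0.31 to 0.42 and for Ankrd37 -0.29 to 0.59. The intervals of the brighter enzymes exclude large differences, and those of Pfkl and Ankrd37 do not exclude a moderate one.

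**Figure D4:**
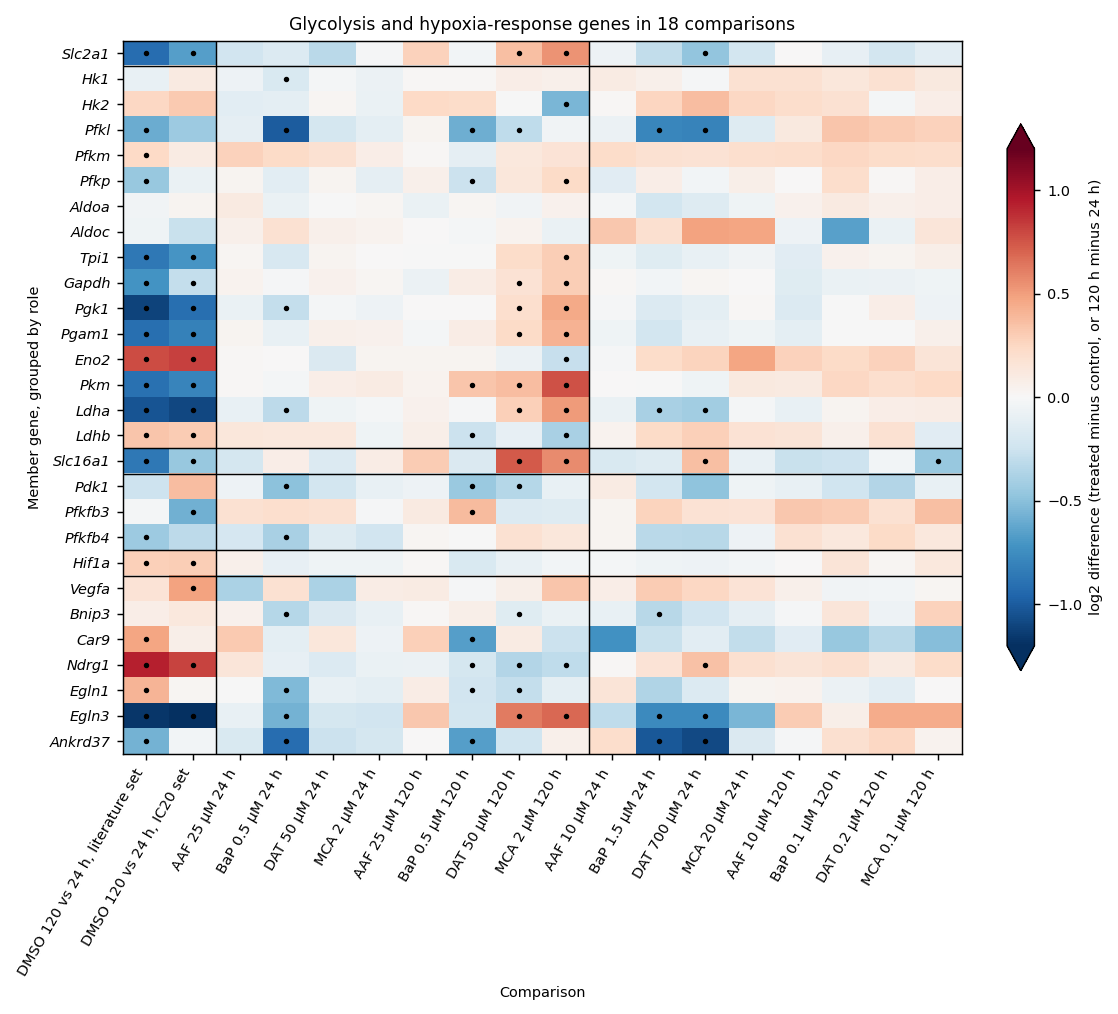
log2 differences of the 28 tested members (rows, grouped by role) in the 2 DMSO time comparisons and 16 treatment comparisons (columns); red is higher, blue is lower, colours saturate at the ends of the scale and dots mark an adjusted p under 0.05. The time columns and the 120 h columns of DAT and MCA carry most of the dots of the lower-pathway enzymes. Others lie in columns of BaP and of 700 µM DAT. Pfkl, Egln3 and Ankrd37 are blue with BaP and 700 µM DAT at 24 h.

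Set side by side, enzymes and the other Hif targets differed in their medians. With time in DMSO the 15 enzymes had a median of -0.46 and -0.27 in the 2 sets, and the 7 other Hif targets had 0.17 and 0.07, around members as far apart as Egln3 and Ndrg1. With 0.5 µM BaP at 24 h the medians were -0.09 for enzymes, 4 of 15 falling, and -0.35 for the targets, 4 of 7 falling. With 1.5 µM BaP they were 0.00, with 2 of 15 falling, and -0.33, with 3 of 7 falling. With 700 µM DAT they were -0.03 and -0.17. At 120 h the enzymes had medians of 0.01 with BaP, 0.12 with DAT and 0.17 with MCA, and the targets had -0.22, -0.14 and -0.08. The median of all genes was between -0.05 and 0.00 in these 8 comparisons, and with lists this short the medians are a description only.

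**Figure D5:**
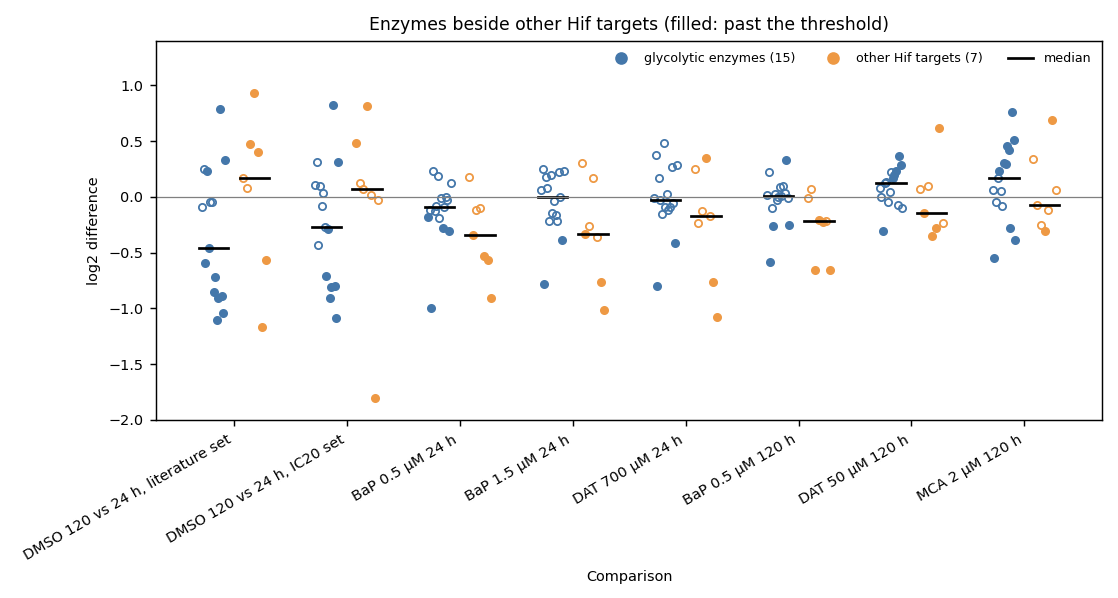
log2 differences of 15 glycolytic enzymes (blue) and 7 other Hif targets (orange) in the 8 comparisons with at least 5 called members; filled points are past the threshold, open points are not, and black bars are medians. The target medians lie below the enzyme medians in all 6 treatment comparisons shown and above them in both time comparisons.

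Genes of neighbouring pathways, from lists beside the 33 members, moved as follows with time in DMSO, where 28.5% of all genes fell and 29.3% rose in the literature-dose set and 22.4% fell and 17.8% rose in the IC20 set. Of 16 tested citrate cycle genes, which oxidise acetyl groups in mitochondria, 11 fell and 0 rose in the literature-dose set and 10 fell and 0 rose in the IC20 set, with Idh3a at -0.63 and -0.65. Of 7 pentose phosphate pathway genes, 5 fell and 1 rose in each set, with Rpe at -1.02 and -1.12 and Taldo1 at -0.92 and -0.94. Of 11 genes of pyruvate dehydrogenase and its regulators, 7 fell and 4 rose, then 6 fell and 1 rose. The phosphatase Pdp1, which activates the complex, rose by 1.42 and 0.46. The oxygen-sensing list also holds the aryl hydrocarbon receptor Ahr, a partner of Arnt. Of its 9 genes 7 rose and 0 fell, then 3 rose and 0 fell, among them Ahr (0.85 and 0.54) and Arnt (0.61 and 0.54). Of 25 further Hif targets 11 rose and 9 fell, then 7 rose and 7 fell, with Angptl4, an inhibitor of lipoprotein lipase, at 1.73 in the literature-dose set and Higd1a, a mitochondrial protein, at -1.48 and -1.25. Of 10 other glycolysis isoforms 2 rose and 3 fell, then 1 rose and 2 fell. Of 3 gluconeogenesis genes tested 2 fell and then 1 fell, with Pck2 at -1.12 and -0.55.

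The same lists were read for the treatments that moved members. Of all genes, 4.91% fell and 4.52% rose with 0.5 µM BaP at 24 h, 1.2% and 1.2% with 1.5 µM BaP, and 3.66% and 4.19% with 700 µM DAT. At 120 h 13% fell and 13.8% rose with BaP, 12% and 11.7% with DAT, and 20.3% and 18.9% with MCA. With 0.5 µM BaP at 24 h, 8 of 25 further Hif targets fell and 1 rose, with Angptl4 (-0.74) and the collagen prolyl hydroxylase P4ha1 (-0.47) lower. At 120 h 15 fell and 3 rose, with Angptl4 at -1.10. Of 9 genes of the oxygen-sensing list 4 fell and 0 rose, among them Arnt2 (-0.61), Arnt (-0.34) and the aryl hydrocarbon receptor Ahr (-0.53). With 1.5 µM BaP 2 of 25 fell and 0 rose, Lox (-0.50) and P4ha1 (-0.43). With 700 µM DAT 2 fell and 2 rose, with the oxidase Ero1a at 0.65. At 120 h MCA lowered 10 and raised 6 of the further targets, with Angptl4 at -1.08, the collagen cross-linking enzyme Lox at -0.97 and the glycogen branching enzyme Gbe1 at 0.82, and DAT lowered 9 and raised 4. In the citrate cycle MCA raised 7 of 16 and lowered 0, DAT raised 4 and lowered 0, and BaP raised 0 and lowered 2. In the pentose phosphate pathway BaP, DAT and MCA raised 3, 2 and 3 of 7 at 120 h and lowered 0.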

How the data were processed

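RNA of 60 samples was hybridised to one-colour Affymetrix mouse arrays, 3 in each of 20 groups. The deposited values were the authors' linear intensities per probe set, 45101 per array, computed with GCOS per the submitters' processing notes (no version is given in the sources used here). The trimmed mean was 500.002 to 500.003 on every IC20 array and 152.902 to 187.559 on the literature-dose arrays. Platform annotation named 1 gene for 34958 probe sets, several for 932 (not used) and left 9211 unlisted.

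From these, log2(intensity + 16) was quantile-normalised within each set, the probe set with the highest mean stood for its gene, and genes above the array median on at least 3 arrays were tested. Each set was fitted apart with limma 3.58.1 (R 4.3.3; trended empirical Bayes, two-sided, Benjamini-Hochberg adjustment, threshold 0.05). The number of arrays limits the precision. The procedure was tested on simulated data with independent noise, where 67 genes of 12635 were changed 1.5-fold, 67 changed 2-fold and 66 changed 4-fold. The 2-fold changes were recovered in 100% of genes in the literature-dose set and 76.1% in the IC20 set, with 16 and 8 unchanged genes called. Alternatives were a joint fit of 60 arrays, no normalisation, median scaling, a pseudocount of 1, no filter, the mean of all probe sets, a replicate block and leaving out each array.

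Same-numbered arrays deviated together (all 3 correlations over 0.1) in 14 of 19 comparisons checked. This pairing is read off the values, and what same-numbered arrays have in common is not stated in the labels. The pairing was not held by the time comparison of the literature-dose set, 2 µM MCA at 24 h, 50 µM DAT at 120 h, or 0.1 µM BaP and 0.2 µM DAT at 120 h.

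Members and pathway lists were chosen with earlier results of these data known. Values per array are given for up to 12 members called in the same direction with time in both sets, up to 10 with the largest change under a treatment, and Pfkl, Hif1a and Gapdh; other members are named or counted, and from each pathway list at most 3 genes with the largest change.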

Additional observations from a re-analysis of the deposited data

Results flagged for a closer look

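In 24 cases the response of a member at 120 h differed from its response at 24 h to the same dose, tested as the difference between the responses with limma over all genes. Each value is the 120 h response minus the 24 h response on the log2 scale, and the comparisons share DMSO arrays within the literature-dose set.

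With 2 µM MCA, the response at 120 h was higher for Egln3 by 0.92, Pkm by 0.66, Slc2a1 by 0.55, Ldha by 0.53, Pgk1 by 0.51, Slc16a1 by 0.49, Pgam1 by 0.36, Pfkp by 0.35 and Gapdh by 0.27. It was lower for Hk2 (-0.47), Ldhb (-0.34), Eno2 (-0.31) and Ndrg1 (-0.23). With 50 µM DAT it was higher for Slc16a1 by 0.90, Egln3 by 0.83, Slc2a1 by 0.68, Ldha by 0.34 and Pkm by 0.29. With 0.5 µM BaP it was higher for Bnip3 by 0.41, Pkm by 0.35, Ldha by 0.30 and Pgk1 by 0.29, and lower for Car9 (-0.54) and Ldhb (-0.38).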

How the results depend on the processing

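Of 119 calls of single members, 95 held in one fit of all 60 arrays, 90 with no normalisation, 86 with median scaling, 118 with a pseudocount of 1, 109 without the filter, 97 with the mean of all probe sets and 119 with the replicate block. Leaving out 1 array at a time gave 858 repeats, of which 720 held and 138 missed the threshold with the same direction. The direction reversed for Egln1 (-0.025, time in the literature-dose set) and Vegfa (-0.14, time in the IC20 set) with the mean of all probe sets, and for Ldhb (-0.21) and Hif1a (-0.36, time in the IC20 set) with median scaling. The causes were not tested, other than that leaving out an array lowers the number of samples. With the replicate block the number of called members was 2 for 25 µM AAF at 24 h, at 120 h and in its response, 2 for 50 µM DAT and for 20 µM MCA at 24 h, 13 for 1.5 µM BaP, 14 for 700 µM DAT, 5 each for 10 µM AAF, 0.1 µM BaP and 0.1 µM MCA at 120 h, 11 for the BaP response and 8 for the DAT response; it took away no call. The joint fit gave 1 for 20 µM MCA, 3 for 0.1 µM MCA, and 2, 3 and 8 for the BaP, DAT and MCA responses. No normalisation gave 6 for 0.5 µM BaP and 7 for 50 µM DAT at 120 h, and 3 for each of the BaP and DAT responses. Median scaling gave 6 and 8 for these treatments at 120 h, 2 for 1.5 µM BaP, 3 for 700 µM DAT and 0 for 0.1 µM MCA. Omitting the filter gave 3 for 1.5 µM BaP, and the mean of all probe sets gave 2 there, 1 for 10 µM AAF at 120 h and 0 for 0.1 µM MCA. Leaving out 1 array gave 0 to 1 for 25 µM AAF at 24 h and in its response, 8 to 12 for 50 µM DAT at 120 h, 0 to 3 for 1.5 µM BaP, 1 to 2 for 0.1 µM MCA and 3 to 5 for the DAT response. Median scaling moved the share of higher genes among all called from 52.5% to 70.7% in the MCA response, from 59.9% to 74% in the DAT response and from 66.5% to 85.1% for 0.1 µM BaP.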
